A study of Homo sapiens with 2 samples.

Results

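CLIC5 is a chloride intracellular channel protein that was described in complexes with ezrin, a linker between actin filaments and the plasma membrane, and here it is set beside its relatives and beside the ezrin, radixin and moesin (ERM) proteins. The genes were the CLIC family, CLIC1 to CLIC6, and EZR, RDX and MSN, which encode ezrin, radixin and moesin. A spot was taken when it was named for 1 of these 9 genes and was not marked unusable by the scanner software. This gave 20 spots of 15 IMAGE cDNA clones for 8 of the 9 genes, out of 13377 genes with a usable spot, and CLIC6 was not analysed here. CLIC5 was chosen by its rise in the log2 ratios of these arrays, so its values are given as a description with no test, and the other genes were taken for their relation to it.

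The RNA came from Saos-2-2 cells, a human osteosarcoma line that constitutively expresses an shRNA against TSG101, and from their parental line Saos-2, which carries no such shRNA. TSG101 encodes a subunit of the ESCRT-I complex, which sorts ubiquitinated cargo into multivesicular bodies. Both lines were grown in DMEM with fetal bovine serum, and each of the 2 spotted cDNA arrays held 1 biological replicate of both lines, and the knockdown line was labelled with Cy5 and the parental line with Cy3 each time. Saos-2-2 was a clone isolated after co-transformation of the shRNA construct with a plasmid for GFP and puromycin resistance, and no line with a control shRNA was on the arrays. Differences of the knockdown, of the clone, of the selection and of the dye therefore cannot be told apart. A lower share of cells with a transcript and less of that transcript per cell cannot be told apart in RNA of whole cultures.

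CLIC proteins are small and are found both as soluble proteins, with a fold like that of omega-class glutathione transferases, and inserted in membranes. CLIC5 lies with ezrin in the microvilli of epithelial cells and of placenta, with radixin at the base of hair cell stereocilia, and in the foot processes of podocytes. Its loss causes deafness in mice and in humans. ERM proteins bind membrane proteins or scaffolds at one end and actin filaments at the other once phosphorylation has opened them. CLIC5 has several transcription starts, and the use of different first exons gives a short and a long protein.

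All upstream sequences of CLIC5 in the RefSeq table are shown because this was the member with the high ratio, and that of CLIC4 is shown beside them because both clones of this gene had ratios below 0 on both arrays. Both clones of RDX and both of MSN also had this, and the upstream sequences of these genes are not shown. For RDX IMAGE:740554 it held only for the average of its spots, as the bright spot had 0.13 on replicate 2. Each sequence below is the 250 bases before a start in the build GRCh38.p14, from 5′ to 3′ on the strand of the gene. Capitals mark the letters TATAAA of the TATA box, CCAAT of the box of that name, and GGGCGG of the GC box, on either strand, and no other searched motif was in these windows.
CLIC5, most upstream start, chr6:46129820-46130069, minus strand: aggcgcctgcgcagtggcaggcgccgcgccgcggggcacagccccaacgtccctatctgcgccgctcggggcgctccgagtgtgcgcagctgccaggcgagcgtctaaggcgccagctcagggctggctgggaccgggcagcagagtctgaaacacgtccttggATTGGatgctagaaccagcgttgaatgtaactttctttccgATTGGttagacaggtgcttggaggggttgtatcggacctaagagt
CLIC5, middle start, chr6:46080349-46080598, minus strand: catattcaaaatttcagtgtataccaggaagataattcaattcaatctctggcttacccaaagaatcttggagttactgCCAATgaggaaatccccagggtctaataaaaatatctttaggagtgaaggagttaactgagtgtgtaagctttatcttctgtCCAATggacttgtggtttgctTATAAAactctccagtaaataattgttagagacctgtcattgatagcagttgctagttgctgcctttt
CLIC5, most downstream start, chr6:46015861-46016110, minus strand: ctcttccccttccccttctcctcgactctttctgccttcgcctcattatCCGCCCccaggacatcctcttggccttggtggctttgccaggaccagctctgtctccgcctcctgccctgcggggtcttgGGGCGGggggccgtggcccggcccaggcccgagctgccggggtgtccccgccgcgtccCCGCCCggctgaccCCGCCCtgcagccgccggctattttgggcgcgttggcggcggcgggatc
CLIC4, chr1:24745197-24745446, plus strand: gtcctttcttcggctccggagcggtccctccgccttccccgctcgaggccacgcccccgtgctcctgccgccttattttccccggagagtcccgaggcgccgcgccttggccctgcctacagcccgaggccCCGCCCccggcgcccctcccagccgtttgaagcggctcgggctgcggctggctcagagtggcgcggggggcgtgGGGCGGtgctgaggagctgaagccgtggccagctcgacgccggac
The CLIC5 windows differed in composition. The most upstream had 63.2% G and C with 2 CCAAT, the middle one had 36.8% with 1 TATAAA and 2 CCAAT, and the most downstream had 72% with 4 GGGCGG. The CLIC4 window had 74.8% G and C and 2 GGGCGG. The median over 35116 upstream windows was 58%, and on either strand 10.7% of these windows held TATAAA, 32% CCAAT and 42.6% GGGCGG. The search also took GGAATG, a core site of TEAD factors, which 11.9% of all windows and only that of CLIC3 among the 11 member windows held, and TGANTCA, the AP-1 site, which 6.57% of all windows and those of CLIC1, CLIC2 and EZR held. The CArG box, the site of serum response factor, was in 1.16% of all windows and in none of the members. A match is a run of letters only, and the arrays do not say which start of CLIC5 was in use.

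Intensities are scanner units of the mean foreground minus the median local background, called net intensity here. Net intensities are not normalized. Their median ratio of Saos-2-2 over Saos-2, over usable spots other than controls, was 1 on replicate 1 and 1.18 on replicate 2. Whether the lines overlapped was read from net intensities across both arrays, which leaves out the pairing within an array. The share of all probes without overlap is not given here. Log2 ratios are Saos-2-2 over Saos-2 after background correction with an offset and loess normalization, so they understate differences of dim spots. The number of arrays limits the precision, and each mean log2 ratio rests on 2 arrays. TSG101 itself (IMAGE:878744) had log2 ratios of -0.48 and -0.24, with a mean of -0.36 ± 0.12 (moderated SE, n = 2 arrays) and a limma adjusted p of 0.201, so its lower level in the knockdown line did not pass the threshold of 0.05. None of the 34674 probes did (0% called, smallest adjusted p 0.106), while 4665 had an unadjusted p under 0.05 with a higher and 3365 with a lower level in Saos-2-2.

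The Saos-2-2 channels of the 2 arrays stood apart in some genes of osteoblasts, the cell type that Saos-2 resembles. COL1A2, a chain of type I collagen, gave 4.91 and 337.04 times its local background in Saos-2-2 on replicates 1 and 2, while the parental line gave 53.57 and 41.75 times. SPP1, which encodes osteopontin, gave 1.79 and 48.26 times in Saos-2-2, against 3.32 and 2.73 times in Saos-2. Net intensities of replicate 2 over replicate 1 had a standard deviation of 0.62 on the log2 scale in Saos-2-2 and 0.43 in Saos-2 over the tested probes. Of 10 osteoblast markers 9 were measured, and all 9 were above 1.5 times background in both lines, with RUNX2 at 14.73 and 15.59 times in Saos-2-2 and 17.13 and 17.17 times in Saos-2. That limit was reached by 97.4% of all probes in Saos-2-2 and 96.4% in Saos-2. All 5 measured epithelial markers and all 4 measured leukocyte and endothelial markers reached it in both lines, so the count does not identify a cell type. Because the Saos-2-2 channels differed, values are given for each array, and the part of this difference in the results was not tested.

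CLIC5 was represented by 3 clones, which gave unlike ratios. Clone IMAGE:810727 had net intensities of 463 and 552 in Saos-2-2, against 73 and 64 in Saos-2. Both Saos-2-2 values were above both Saos-2 values, and each line varied little between the arrays. The log2 ratios were 2.12 and 2.28, with a mean of 2.20 ± 0.11 (moderated SE, n = 2), which is 4.6-fold. Of the 34674 probes, 4 had a higher mean log2 ratio. The foreground of the spot was 10.26 and 11.62 times its background in Saos-2-2, against 2.59 and 2.39 times in Saos-2, so the parental signal was low.

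Clone IMAGE:148914 of CLIC5 had net intensities of 274 and 300 in Saos-2-2, against 66 and 63 in Saos-2. The lines again did not overlap. Its log2 ratios of 1.49 and 1.47 gave a mean of 1.48 ± 0.1, or 2.79-fold, and 72 probes had a higher mean. The ratio of the first clone was 0.72 higher on the log2 scale than that of this clone. The third clone, IMAGE:1759419, was dim in both lines, with 31 and 41 in Saos-2-2 and 21 and 30 in Saos-2. Its foreground was 1.65 and 1.76 times the background in Saos-2-2, against 1.47 and 1.65 times in Saos-2, and its log2 ratios were 0.17 and 0.02. The range of this clone in Saos-2-2 lay above that in Saos-2, but by 1 scanner unit between the nearest values, and at this signal it bears little on the level of CLIC5. The sources used here do not say which CLIC5 transcript each clone holds.

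**Figure D1:**
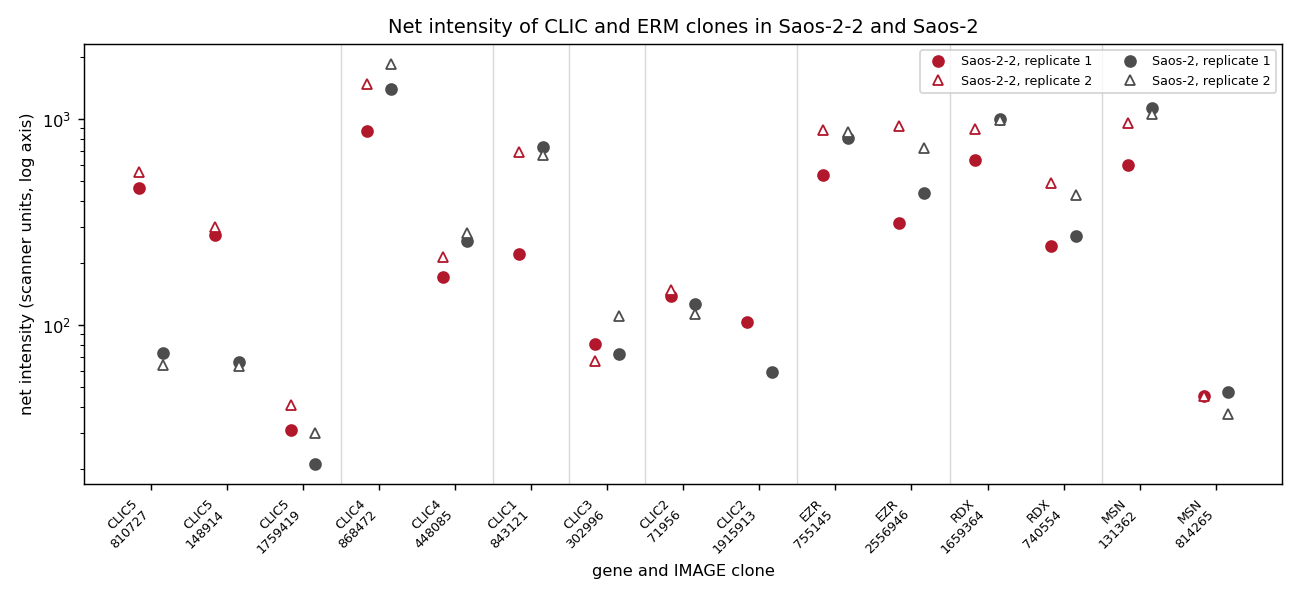
Net intensity (mean foreground minus median local background, scanner units, log axis) of the 15 CLIC and ERM clones, with Saos-2-2 in red left of Saos-2 in grey, and filled circles for replicate 1 and open triangles for replicate 2. CLIC5 clones IMAGE:810727 and IMAGE:148914 are between 274 and 552 in Saos-2-2 and between 63 and 73 in Saos-2, and points are to be compared within a clone only.

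Of the other genes, 11 clones of 7 genes were tested, and none passed the adjusted threshold (0% of all probes). At an unadjusted p under 0.05, 2 of the 11 had a lower level in Saos-2-2, both of them clones of CLIC4, and none had a higher one, beside 9.7% lower, 13.5% higher and 23.2% in either direction among all probes. Log2 ratios were below 0 on both arrays for 8 of the 11 clones, which is 72.7%, beside 35.6% of all probes. Among these, CLIC1, EZR IMAGE:755145, RDX IMAGE:740554 and MSN IMAGE:814265 had only -0.07 to -0.04 on replicate 2. Their sign on that array is therefore weak evidence of a lower level. They were above 0 on both arrays for 1 clone, beside 35.2% of all probes, and of opposite sign for 2. The median over the 11 clones was -0.33, and over all probes it was -0.01. Several clones of 1 gene share their transcript, so these counts are not counts of independent genes.

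CLIC4, which has a role in TGF-beta signalling and in the forming of vessel lumens, was the one gene of these 7 with an unadjusted p under 0.05, and it had it in both of its clones. Clone IMAGE:868472 had net intensities of 877 and 1486 in Saos-2-2, against 1403 and 1850 in Saos-2. The ranges of the lines overlapped across the arrays, while on each array Saos-2-2 was the lower. The log2 ratios were -0.48 and -0.33, with a mean of -0.41 ± 0.11, an unadjusted p of 0.0223 and a limma adjusted p of 0.161. Clone IMAGE:448085 had 170 and 213 in Saos-2-2, against 255 and 278 in Saos-2, so here the lines did not overlap. Its log2 ratios of -0.45 and -0.47 gave a mean of -0.46 ± 0.1, with an unadjusted p of 0.0127 and a limma adjusted p of 0.139. The clones of CLIC4 thus gave means within 1 standard error of each other, with both arrays of each below 0, and neither passed the adjusted threshold. Over the alternatives the adjusted p was between 0.0755 and 0.226 for IMAGE:868472 and between 0.0749 and 0.143 for IMAGE:448085 (limma).

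CLIC1 encodes a protein of the cytoplasm and nucleus that inserts in membranes upon oxidation. Its clone IMAGE:843121 had net intensities of 220 and 688 in Saos-2-2, against 732 and 666 in Saos-2. The lines overlapped, and the low value was that of Saos-2-2 on replicate 1. The log2 ratios of -1.45 and -0.04 differed by 1.41, and their mean of -0.74 ± 0.38 had a limma adjusted p of 0.318. The mean of CLIC1 was the lowest of the members and rested on replicate 1.

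CLIC3, which takes part in the recycling of integrins in cancer cells, was dim. Its clone IMAGE:302996 had 81 and 67 in Saos-2-2, against 72 and 110 in Saos-2, with log2 ratios of 0.01 and -0.71, a mean of -0.35 ± 0.21 and a limma adjusted p of 0.383. The lower ratio came from replicate 2, in contrast to CLIC1. CLIC2, which inhibits ryanodine receptors, had 138 and 147 in Saos-2-2, against 127 and 113 in Saos-2, for clone IMAGE:71956. The lines did not overlap in net intensity, but the normalized log2 ratios of 0.05 and 0.07 were small, with a mean of 0.06 ± 0.1 and a limma adjusted p of 0.727. A further CLIC2 clone, IMAGE:1915913, was usable on replicate 1 alone, with 103 in Saos-2-2, against 59 in Saos-2, at a log2 ratio of 0.41, and was not tested.

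Ezrin, the main ERM protein of epithelial microvilli, was measured by 2 clones of its own. Clone IMAGE:755145, spotted at 3 places, had mean net intensities of 534.7 and 881.3 in Saos-2-2, against 807.7 and 863.3 in Saos-2. The Saos-2-2 values lay on either side of those in Saos-2. The log2 ratios were -0.43 and -0.06, with a mean of -0.24 ± 0.14 and a limma adjusted p of 0.36. On replicate 1 the 3 spots gave -0.49, -0.4 and -0.4, and on replicate 2 they gave -0.2, 0.18 and -0.15, so the spots were close on replicate 1 and of both signs on replicate 2. Clone IMAGE:2556946 had 312 and 925 in Saos-2-2, against 438 and 727 in Saos-2, with log2 ratios of -0.34 and 0.25, a mean of -0.04 ± 0.19 and a limma adjusted p of 0.899. A spot with IMAGE:28735, named for EZR and for another gene, was left out of these counts, and its log2 ratios were -0.1 and 0.14.

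Radixin, the ERM protein of stereocilia and of bile canaliculi, had net intensities of 633 and 898 in Saos-2-2, against 997 and 985 in Saos-2, for clone IMAGE:1659364. Both Saos-2-2 values were below both Saos-2 values. The log2 ratios of -0.47 and -0.19 gave a mean of -0.33 ± 0.12 with a limma adjusted p of 0.232. Clone IMAGE:740554 was spotted at 2 places that were unlike in brightness. The bright spot had 438 and 936 in Saos-2-2, against 493 and 811 in Saos-2, and log2 ratios of -0.05 and 0.13. The dim spot had 43 and 47 in Saos-2-2, against 46 and 46 in Saos-2, and log2 ratios of -0.14 and -0.21. Their average of -0.07 ± 0.1 had a limma adjusted p of 0.718, so the radixin clones did not give the same size of difference.

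Moesin, the ERM protein that prevails in leukocytes and endothelium, was spotted at 3 places with clone IMAGE:131362. Its mean net intensities were 598.3 and 952.7 in Saos-2-2, against 1127 and 1059.3 in Saos-2. The lines did not overlap, and the gap was wider on replicate 1. The log2 ratios of -0.71 and -0.21 gave a mean of -0.46 ± 0.16, with an unadjusted p of 0.0528 and a limma adjusted p of 0.221. The 3 spots gave -0.81, -0.62 and -0.69 on replicate 1 and -0.28, -0.13 and -0.22 on replicate 2, so each spot was below 0 on each array. Clone IMAGE:814265 was dim, with 45 and 45 in Saos-2-2, against 47 and 37 in Saos-2, and its log2 ratios were -0.12 and -0.07 (limma adjusted p = 0.6).

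**Figure D2:**
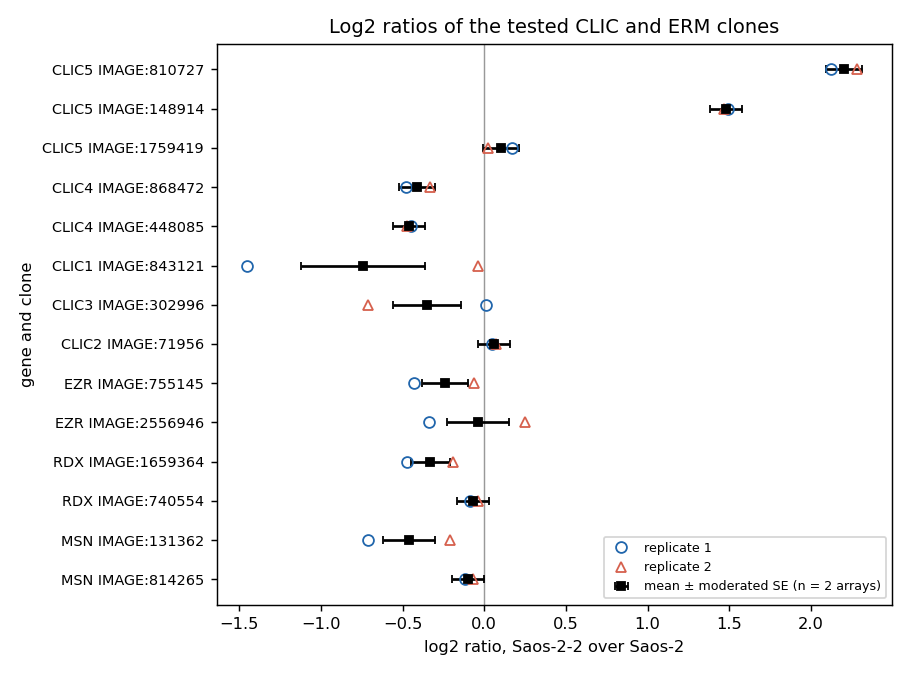
Log2 ratios of Saos-2-2 over Saos-2 for the 14 tested clones, with the values of replicate 1 (circles) and replicate 2 (triangles) and their mean with its moderated standard error (squares and bars, n = 2 arrays). CLIC5 clones IMAGE:810727 and IMAGE:148914 have means of 2.20 and 1.48, and the other clones lie between -0.74 and 0.1.

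When each gene was taken by its brightest clone and ordered by its mean log2 ratio, CLIC1 came lowest, followed by MSN, CLIC4, CLIC3, RDX, EZR, CLIC2 and CLIC5. From CLIC1 to EZR the array values of each gene overlapped those of the next. Compared within each array, MSN and CLIC4 were below RDX, and RDX was below EZR, in part by small margins. CLIC1 was the lowest of these 6 genes on replicate 1 and the highest on replicate 2, and CLIC3 was the reverse. The values of EZR and CLIC2 did not overlap, nor did those of CLIC2 and CLIC5. This order compares ratios, not levels.

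For several bright clones the 2 arrays differed more in the Saos-2-2 channel than in the Saos-2 channel. The net intensity of replicate 2 over that of replicate 1 was 3.13 in Saos-2-2 and 0.91 in Saos-2 for CLIC1, and 2.96 in Saos-2-2 and 1.66 in Saos-2 for EZR clone IMAGE:2556946. It was 1.59 in Saos-2-2 and 0.94 in Saos-2 for MSN clone IMAGE:131362. The median over all probes was 1.15 in Saos-2-2 and 0.947 in Saos-2. For CLIC5 it was 1.19 in Saos-2-2 and 0.877 in Saos-2 for IMAGE:810727, 1.09 in Saos-2-2 and 0.955 in Saos-2 for IMAGE:148914, and 1.32 in Saos-2-2 and 1.43 in Saos-2 for the dim IMAGE:1759419. In Saos-2-2, the brighter CLIC5 clones were closer to the median of that line than CLIC1, EZR IMAGE:2556946 and MSN IMAGE:131362 were. This was not particular to CLIC5. In Saos-2-2 it was 1.07 for CLIC2 IMAGE:71956, 1.25 for CLIC4 IMAGE:448085 and 1 for the dim MSN IMAGE:814265. For EZR, RDX and MSN, the brightest clone had a log2 ratio closer to 0 on replicate 2. The same held for the brightest clones of CLIC1 and CLIC4, but not for those of CLIC2, CLIC3 and CLIC5. CLIC3 had 0.01 on replicate 1 and -0.71 on replicate 2. A link to the difference of COL1A2 and SPP1 between the Saos-2-2 channels was not tested.

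**Figure D3:**
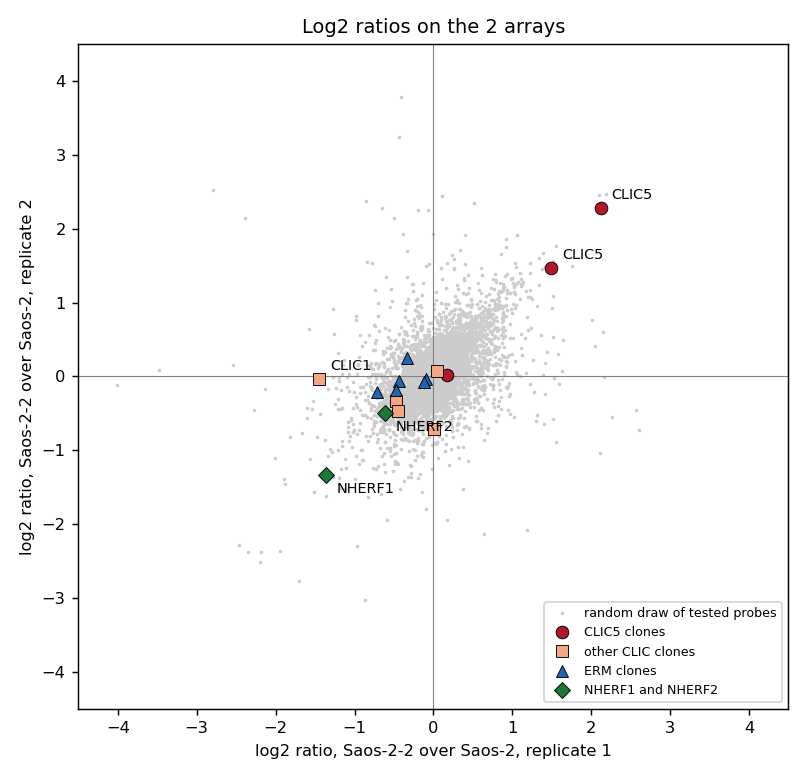
Log2 ratio of Saos-2-2 over Saos-2 on replicate 2 against that on replicate 1, for CLIC5 clones (red circles), other CLIC clones (orange squares), ERM clones (blue triangles), NHERF1 and NHERF2 (green diamonds) and a random draw of 6000 tested probes (grey). The brighter CLIC5 clones are near the diagonal at 2.12 and 2.28 and at 1.49 and 1.47, while CLIC1 is at -1.45 on replicate 1 and -0.04 on replicate 2.

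The proteins that work with CLIC and ERM proteins were taken as 3 lists of 39 genes, 31 of which were tested by their brightest clone. None passed the adjusted threshold (0% of all genes). At an unadjusted p under 0.05, 4 had a lower and 2 a higher level in Saos-2-2, beside 11.5% lower and 11.8% higher among the 12936 genes. The median log2 ratio of the 31 genes was -0.03, with -0.11 on replicate 1 and 0.02 on replicate 2, and the median of the means of all genes was -0.02.

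The list of membrane partners and scaffolds of ERM proteins had 11 tested genes of 13, of which 3 had an unadjusted p under 0.05 with a lower level in Saos-2-2 and 0 with a higher one. NHERF1, the PDZ scaffold that ties membrane proteins to ezrin, had net intensities of 770 and 832 in Saos-2-2, against 2329 and 2112 in Saos-2, for clone IMAGE:773286. The lines were far apart and alike on both arrays. The log2 ratios of -1.36 and -1.34 gave a mean of -1.35 ± 0.1, which is 2.55-fold lower, with an unadjusted p of 0.000275 and a limma adjusted p of 0.106, equal to the smallest of all probes. HIVEP2 had the same adjusted p at an unadjusted limma p of 0.00128, so this value does not rank NHERF1 first. With the deposited log2 ratios its adjusted p was 0.0245, and over the alternatives it was between 0.0245 and 0.106 (limma). Of all probes, 6.19% passed with the deposited log2 ratios. NHERF2, a scaffold of the same family, had 813 and 1100 in Saos-2-2, against 1427 and 1532 in Saos-2, for clone IMAGE:178569. Its log2 ratios of -0.61 and -0.5 gave a mean of -0.56 ± 0.11 with a limma adjusted p of 0.123. The third was SELPLG, a selectin ligand of leukocytes whose tail binds ERM proteins, with 163 and 147 in Saos-2-2, against 241 and 176 in Saos-2, and log2 ratios of -0.43 and -0.38 (limma adjusted p = 0.153). The median of the list was -0.28, with -0.42 on replicate 1 and 0.01 on replicate 2, so the list as a whole was not lower on replicate 2. Of its 11 genes, 8 had a mean below 0, beside 52.7% of all genes, and 5 were below 0 on both arrays, beside 36.5%.

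The genes of microvilli and stereocilia had a median of 0.02 over 12 tested genes of 17, with -0.06 on replicate 1 and 0.06 on replicate 2. FSCN1, which encodes the actin bundler fascin, was lower at the unadjusted threshold, with 121 and 131 in Saos-2-2, against 175 and 171 in Saos-2, and log2 ratios of -0.42 and -0.48 (limma adjusted p = 0.141). PLS3, which encodes plastin 3, another actin bundler, was higher, with 2221 and 5887 in Saos-2-2, against 1902 and 1922 in Saos-2. Its log2 ratios of 0.42 and 1.62 gave a mean of 1.02 ± 0.33 with a limma adjusted p of 0.194, most of it from replicate 2, and the means of its 3 clones were between 0.26 and 1.02.

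The proteins that bind CLIC proteins, with the omega-class glutathione transferases, had a median of -0.05 over 8 tested genes of 9, with -0.11 on replicate 1 and 0.04 on replicate 2. HIVEP2, a zinc finger protein that is known in mouse cells to accompany CLIC4 to the nucleus, had net intensities of 221 and 264 in Saos-2-2, against 99 and 98 in Saos-2, for clone IMAGE:971212. The log2 ratios of 0.86 and 0.93 gave a mean of 0.89 ± 0.1, with an unadjusted p of 0.00128 and a limma adjusted p of 0.106. The adjusted p was 0.0348 with the deposited log2 ratios, with which 6.19% of all probes passed, and between 0.0348 and 0.106 over the alternatives. The arrays were alike for this gene and unlike for ACTN1 and GSN, the actin-binding proteins alpha-actinin 1 and gelsolin. ACTN1 had log2 ratios of -1.19 and -0.06 (limma adjusted p = 0.309), and GSN had 0.22 and 1.76 (limma adjusted p = 0.258).

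**Figure D4:**
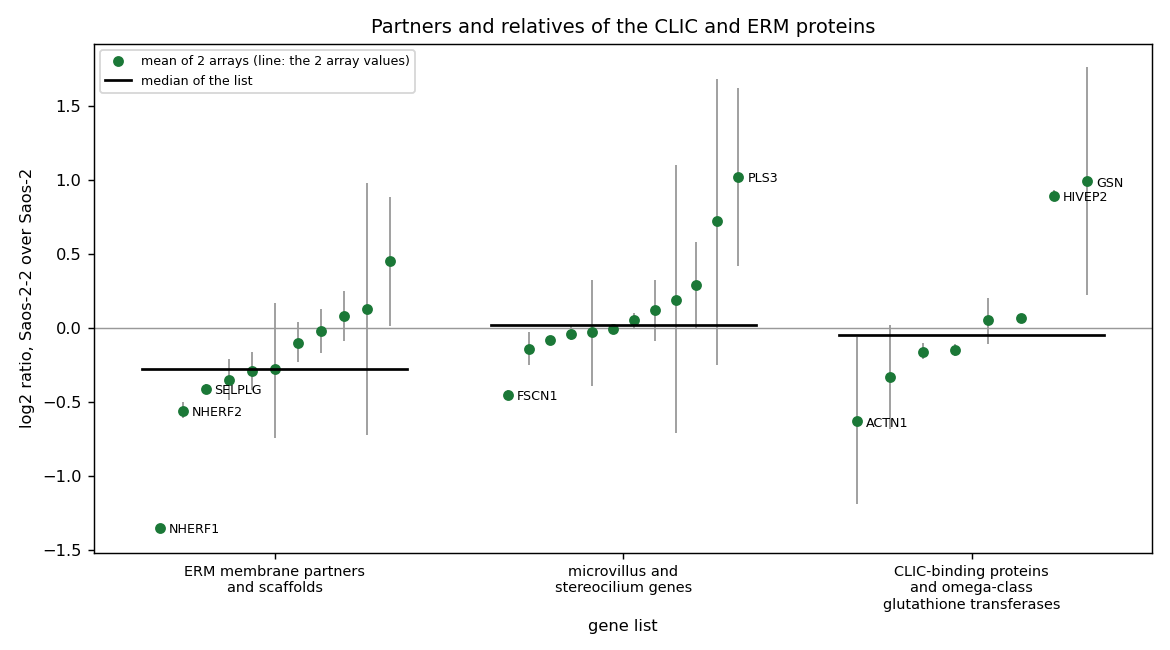
Mean log2 ratio of Saos-2-2 over Saos-2 (circles, n = 2 arrays) for the 31 tested partner genes in their 3 lists, with grey lines between the values of the arrays and black bars at the list medians. NHERF1 at -1.35 is the lowest gene, and the list medians are -0.28, 0.02 and -0.05.

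The genes with array values most like those of CLIC5 clone IMAGE:810727 were sought among 12935 others, by the distance between the pairs of log2 ratios on the 2 arrays. The nearest was ANO5 at a distance of 0.19, with log2 ratios of 2.18 and 2.47. SDC3 at 0.53 had 2.33 and 1.8, and CDKN1A at 0.64 had 1.51 and 2.48. SMPD3 at 0.68 had 1.91 and 1.64, and BEX2 at 0.75 had 1.82 and 1.59. With 2 arrays of 1 contrast, this likeness says that their ratios were of similar size.

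The size of the CLIC5 ratio differed between some of the alternatives, and no alternative changed the call of another member. The mean of IMAGE:810727 was 2.79 with plain background subtraction and 2.79 in the deposited log2 ratios, against 2.20 here, and that of IMAGE:148914 was 2 and 2.05, against 1.48 here. With no background correction the means of these clones were 2.19 and 1.49. Why the deposited values were higher was not tested. RDX clone IMAGE:1659364 had -0.09 with print-tip loess (limma adjusted p = 0.736, with a range of 0.0995 to 0.736 over the alternatives), against -0.33 here. Without loess, bright probes had lower ratios, and the brightest 5% had medians of -0.22 and -0.17 on replicates 1 and 2 after median centring. The brightest clones of CLIC4, MSN, RDX and EZR were at the 97th, 94th, 93rd and 92nd percentile of brightness, and after median centring their mean log2 ratios were -0.57, -0.59, -0.47 and -0.37.

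**Figure D5:**
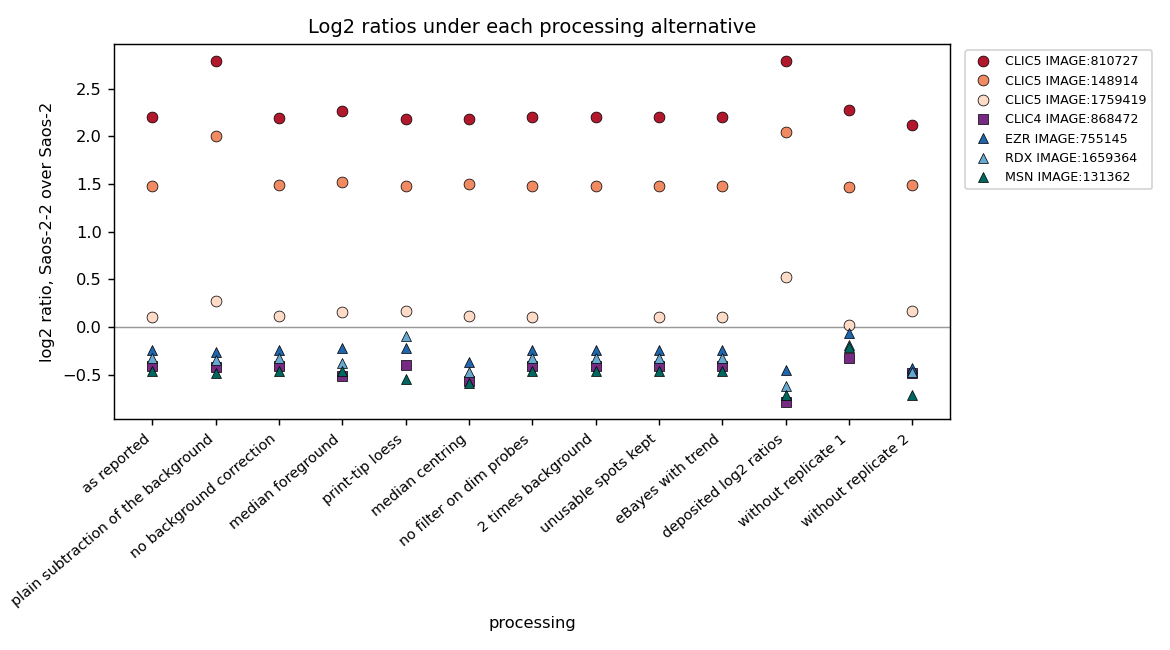
Log2 ratio of Saos-2-2 over Saos-2 for 3 CLIC5 clones, 1 CLIC4 clone and the brightest clone of each ERM gene, as reported and under each alternative processing. IMAGE:810727 lies between 2.12 and 2.79, and the CLIC4, EZR, RDX and MSN clones are below 0 throughout.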

How the data were processed

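Total RNA of Saos-2-2 and Saos-2 was measured on 2 spotted cDNA arrays of 41568 spots. The deposited scanner files hold the foreground and local background of each channel as linear intensity, without normalization. The deposited log2 ratios, of Cy5 over Cy3, were normalized by the authors. Agilent Feature Extraction is the one tool in the submitters' processing notes, with no version.

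Control spots and spots marked unusable were left out. In limma 3.58.1 (R 4.3.3), background was corrected with normexp (offset 50) on mean foregrounds, global loess (span 0.3) was run within each array and spots of a clone were averaged. Probes with a foreground of 1.5 times background in at least 1 channel on both arrays were tested by the moderated statistic of a single-column model (2.75 prior degrees of freedom). P-values were adjusted by Benjamini and Hochberg over 34674 probes, also for the members, and the threshold was 0.05. On both arrays 97.4% of probes reached that limit in Saos-2-2 and 96.4% in Saos-2, so it says little about detection. Where a gene had several clones, its brightest stood for it. Named partner genes were those with an unadjusted p under 0.05 or, in a list with fewer than 2, the lowest and the highest, and the 5 genes nearest to CLIC5 were named. The fit was run on simulated data with variances drawn from its own prior, as a check of the median estimates. This check did not judge false calls or power.

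The members and lists were chosen with earlier results of these data known, and 1 further list is not reported here. Upstream sequences came from RefSeq (GRCh38.p14), which matched all 8 genes. Gene names were those of the arrays brought to current symbols.

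The alternatives changed the background correction, foreground, normalization, filter, spot use, variance model, values and array set.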

Additional observations from a re-analysis of the deposited data

How the results depend on the processing

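The fit was itself paired, because the log2 ratio within each array pairs both lines, and this leaves no further block. No member other than CLIC5 passed an adjusted p of 0.05 under any of the settings with a test, and no tested member clone had a mean of the opposite sign in them, while EZR clone IMAGE:2556946 had 0 with median foregrounds, beside -0.04 as reported. The mean log2 ratio of CLIC5 clone IMAGE:810727 was 2.79 with plain subtraction of the background and 2.79 with the deposited log2 ratios, and between 2.12 and 2.28 when 1 array was left out. With the deposited log2 ratios, 2148 probes passed (1585 higher and 563 lower), which is 6.19% of all probes, against 0 in the fit reported here. The cause of this difference was not tested. That share is over all probes, and the share over all genes by their brightest clone is not given here. Of the 31 partner genes, taken by their brightest clone, 2 passed with the deposited log2 ratios. These were NHERF1 (-1.54, limma adjusted p = 0.0245) and HIVEP2 (1.15, limma adjusted p = 0.0348). Clones of the other members with ratios below 0 on both arrays numbered 6 with print-tip loess (35.4% of all probes) and 9 with the deposited log2 ratios (41.1%), beside 8 as reported (35.6%), and 9 were below 0 on each array taken alone (50.2% of all probes on each). CLIC5 clone IMAGE:1759419 was removed by the filter of 2 times background. Precision is limited by the 2 arrays, by the absence of a dye swap and by the low signal of dim clones.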
